A study of Mus musculus with 109 samples.

Results

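The genes described here are 6 homeodomain transcription factors of the cerebellar granule lineage, Meis1, Meis2, Meis3, Pbx2, Pbx3 and Pax6. They were chosen by symbol, and all 6 were found among the 15973 genes of the deposited count table. The table holds read counts of 109 single cells, taken from the mouse cerebellum at P7 by a Percoll density gradient and captured with the Fluidigm C1 system. The labels give the strain of every cell as C57BL/6. The study's methods name ICR as the source of pups and no other strain, so that the strain is uncertain. The labels name the cells granule precursor cells and give neither a treatment nor an animal for any cell, and the title of each cell places it in 1 of 6 library groups of 18 or 19 cells, so the library group served as the replicate and p-values measure the spread between library groups, which may be technical. All cells share the labelled strain, age and preparation, and no group differs by genotype or agent. The 3 sets of classes compared below were therefore made from counts of a gene outside the 6: Mki67, which encodes the Ki67 protein of cycling cells, Rbfox3, which encodes the neuronal nuclear protein NeuN, and Notch2, which encodes a Notch receptor.

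Meis and Pbx proteins belong to the TALE class of homeodomain factors, which carry an extra loop in the homeodomain. They bind DNA together, as pairs or with Hox proteins, and Pbx proteins depend on such partners for much of their activity in the nucleus. Pax6 carries a paired domain beside its homeodomain. It marks the granule lineage from the rhombic lip through the external granule layer into the mature granule cell. Meis1 is known from granule cell precursors and several other progenitor cells, but is not limited to them. The study used Meis1 beside Pax6 as a marker of the whole granule lineage, apart from its precursor markers such as Mki67.

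The total count per cell ranged from 15071 to 8616017, with a median of 3604792, and the number of detected genes from 2771 to 13533, with a median of 4312. CPM is the count of a gene per 1000000 counts of its cell. Cells with Mki67 of at least 100 CPM, called Mki67-high, numbered 32, and cells with Mki67 under 10 CPM, called Mki67-low, numbered 75; the 2 cells between these bounds entered neither class. Mki67-high cells had a median total of 4157698 and a median of 4968 detected genes, against 3580460 and 4193 in Mki67-low cells. Deeper cells hold more detected genes, and leaving out or thinning cells is reported beside the results below. Markers of the granule lineage, 8 of 8 with counts, had a median summed level per cell of 2332 CPM in Mki67-high cells and 6925 CPM in Mki67-low cells. Such a sum weights the markers with the highest levels, such as Dcx (mean 676 and 2869 CPM) and Neurod1 (1537 and 2240 CPM). Atoh1 (61.9 and 3.84 CPM) and Barhl1 (56.4 and 55.2 CPM) were higher in Mki67-high cells, so the sum does not measure how far a class belongs to the lineage. Some cells carried markers of other cell types. Gad1, which encodes an enzyme of GABA synthesis, reached 100 CPM in 10 cells, all of them Mki67-low and spread over the 6 library groups, and 4 cells had at least 5 of 8 astroglial markers at 50 CPM or more. Of these 4 cells, 3 were Mki67-high, and 2 of those were the only cells with more than 10000 detected genes. These bounds were set after the values were seen, and the cells they mark are described without a test.

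In the mouse genome the 6 genes lie apart, and their positions are given here in GRCm38, the assembly of the mm10 build, with GENCODE M21. Meis1 spans chr11:18879817-19018985 on the minus strand and Pax6 chr2:105668900-105697364 on the plus strand. Pbx3 (chr2:34171457-34373142) and Meis2 (chr2:115863064-116065839) lie on the minus strand of the same chromosome as Pax6. Meis3 lies at chr7:16175090-16186504 and Pbx2 at chr17:34591266-34597400, both on the plus strand. Exons of Meis1 overlap those of the antisense gene Gm16140, and exons of Pbx2 overlap those of Gpsm3 on the same strand, so that reads in the shared bases are uncertain. The strand setting of the counting is not known. Counts cover reads in exons, and levels were compared between genes only per kilobase of merged exon length.

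The bases before the transcription start of the most widely detected genes, Meis1 and Pax6, are shown because these 2 genes carry most of the results. They are the RefSeq promoter windows of GRCm38.p6, read 5′ to 3′ on the strand of the gene and cut back to the bases that no annotated exon covers. Capitals mark CCAAT and TGACGTCA, the letters of the CCAAT box and of the cyclic AMP response element, which were searched after the sequences were seen. The Meis1 bases are chr11:19018986-19019219 and the Pax6 bases, before the upstream start, are chr2:105668646-105668895.
Meis1: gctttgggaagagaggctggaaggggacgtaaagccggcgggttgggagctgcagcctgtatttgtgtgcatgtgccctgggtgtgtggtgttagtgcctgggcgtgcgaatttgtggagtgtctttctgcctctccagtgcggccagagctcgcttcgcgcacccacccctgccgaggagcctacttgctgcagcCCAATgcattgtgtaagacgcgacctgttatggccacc
Pax6: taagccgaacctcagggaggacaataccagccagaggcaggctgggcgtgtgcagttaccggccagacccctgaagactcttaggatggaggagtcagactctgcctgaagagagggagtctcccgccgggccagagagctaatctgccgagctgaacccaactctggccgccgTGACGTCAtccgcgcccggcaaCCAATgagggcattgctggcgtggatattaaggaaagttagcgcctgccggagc
TGACAG, the letters that Meis proteins bind, was searched on both strands in the 250 bases before each listed start of Meis1, Meis2, Meis3, Pbx2 and Pax6. It was found once, in the reverse form CTGTCA, before the downstream start of Pax6, where all 250 bases are exonic in the annotation of the longer Pax6 transcripts. The 30 bases around it, at chr2:105682292-105682321, are shown with the match in capitals.
Pax6 downstream start: cggagcggagcaCTGTCAcaaagtgacaag
Among all 32851 windows of 250 bases, 15.9% held TGACAG, 33.8% held CCAAT and 1.55% held TGACGTCA. TGATNNAT, a form of the Pbx and Hox composite site, was in 7.68% of all windows and in none of those of the 5 genes. Such matches describe letters only.

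Meis1 and Pax6 were detected in nearly every cell, and the other 4 genes in fewer. A count of Meis1 was found in 106 of 109 cells and a count of Pax6 also in 106, a share of 97.2% each (95% Wilson interval 92.2 to 99.1%). Pbx3 had a count in 44 cells (40.4%, interval 31.6 to 49.8%) and Meis3 in 39 cells (35.8%, interval 27.4 to 45.1%). Pbx2 had a count in 13 cells (11.9%, interval 7.10 to 19.3%), and Meis2, best known from forebrain and limb, in 3 cells (2.75%, interval 0.940 to 7.78%). Intervals cover counting error only.

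Single counts were widespread in these libraries: Mki67 itself had a count in 57 of the 75 Mki67-low cells. Stricter bounds were therefore set beside the count. At 10 CPM or more, Meis1 was found in 90 cells, Pax6 in 85, Pbx3 in 24, Meis3 in 14, Pbx2 in 6 and Meis2 in 1. At 100 CPM or more the numbers were 69 for Meis1, 63 for Pax6, 8 for Pbx3, 6 for Meis3 and 4 for Pbx2. The order of the 6 genes, not scaled for exon length, was thus the same at each bound, with Meis1 and Pax6 level at 1 count. A cell with no count can still hold the transcript: 3 counts, taken as the limit that a count of 0 allows, would be 0.677 to 0.909 CPM in the 3 cells without Meis1.

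**Figure D1:**
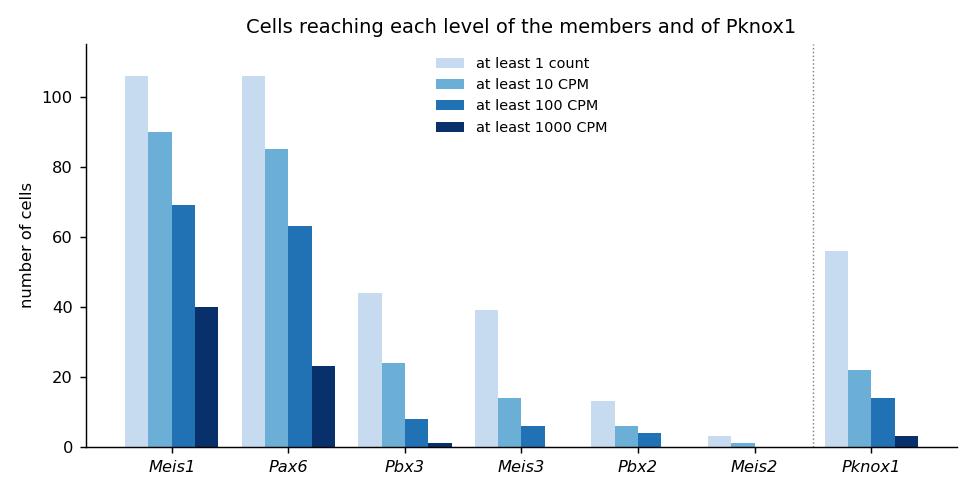
Bars give the number of cells, of 109, in which each gene reached at least 1 count, 10 CPM, 100 CPM or 1000 CPM; the dotted line sets the related gene Pknox1 apart from the 6 genes. Meis1 and Pax6 stand at 106 cells each by count and at 69 and 63 cells from 100 CPM, while Meis2 reaches 10 CPM in 1 cell.

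Where a gene was present its level varied widely between cells. Meis1 ran from 0 to 7019 CPM with a median of 458 CPM, and reached 1000 CPM in 40 cells. Pax6 ran from 0 to 9685 CPM with a median of 162 CPM, and reached 1000 CPM in 23 cells. The highest Pbx3 level was 2391 CPM, the next was 732 CPM, and the lowest was 0. The highest Meis3 levels, 639 and 626 CPM, were found in an LR-16314 and an LR-16313 cell. The highest Pbx2 level, 199 CPM, rested on 3 counts in the cell with the total of 15071, and the next was 186 CPM. Few cells thus carried most of the signal of the rarer genes. The 5 highest cells held 83.5% of the summed Meis3 CPM, 77.8% of that of Pbx3 and 95.3% of that of Pbx2, against 24.1% for Meis1 and 38.4% for Pax6.

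Per kilobase of exon, the mean level over the 6 library groups was 92.4 ± 45.8 CPM for Meis1 and 63.9 ± 31.4 CPM for Pax6 (SD, n = 6 library groups). Pbx3 followed at 8.69 ± 9.81, Meis3 at 6.41 ± 5.28, Pbx2 at 1.93 ± 3.09 and Meis2 at 0.0358 ± 0.0867 CPM per kilobase. Neighbours in this order were compared over the 6 library groups by an exact permutation test that flips the signs of the differences (two-sided, smallest possible p 0.03125). Meis1 was above Pax6 in 4 library groups (p = 0.188), Pax6 above Pbx3 in 5 (p = 0.0625), Pbx3 above Meis3 in 3 (p = 0.781), Meis3 above Pbx2 in 6 (p = 0.03125) and Pbx2 above Meis2 in 4 (p = 0.125). After Benjamini-Hochberg adjustment over the 5 pairs the exact p-values ran from 0.156 to 0.781. A single pair at the smallest possible p also has an adjusted p of 0.156, so this design could not separate one pair of neighbours after adjustment.

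The rule compares Mki67-high with Mki67-low cells, that is, cells with the cycling marker against cells nearly without it. Counts were summed per class in each library group and tested with edgeR, and a gene was called at an adjusted p under 0.01. Of the 5 members that passed the filter on low counts, 0 were called, against 0.022% of all genes tested, which were 2 of 9084, Cdc20 and Tacc3. Both were higher in Mki67-high cells. At an unadjusted p under 0.05 the number was 666 of the 9084 genes and 0 of the 5 members. DESeq2 on the same sums called 376 of 10810 genes tested and none of Meis1, Meis3, Pbx3 and Pax6. Meis2 and Pbx2 had no adjusted p there. With shares this small over all genes, no call among so few members is not a result about them. The biological coefficient of variation between sums was 171.5%, and the standard errors of the members were as large as their fold changes or of the same order.

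Meis1 in the summed counts was at 948 ± 524 CPM in Mki67-high and 1030 ± 635 CPM in Mki67-low cells (SD, n = 6 library groups each), with sums of 382 to 1766 CPM and 323 to 2034 CPM. The classes overlapped, and the log2 fold change was -0.15 (SE 0.55, edgeR adjusted p = 0.974), turning to 0.20 without LR-16312 and 0.070 without LR-16313. DESeq2 gave 0.20. Pax6 stood at 545 ± 258 CPM in Mki67-high and 852 ± 570 CPM in Mki67-low cells, a log2 fold change of -0.74 (SE 0.57, adjusted p = 0.804), and its sum was higher in Mki67-high cells in 2 of 6 library groups. Without LR-16202 the Pax6 value was -0.23, and with Mki67-high cells from 500 CPM -0.08. Pbx3 had a log2 fold change of -2.18 (SE 1.59, adjusted p = 0.791), from 13.9 ± 11.1 CPM in Mki67-high and 53.7 ± 59.0 CPM in Mki67-low cells. With Mki67-high cells from 500 CPM the Pbx3 value was -4.53. For Meis3 the values were 9.38 ± 15.1 and 24.7 ± 19.8 CPM and the log2 fold change was -1.62 (SE 1.74, adjusted p = 0.875), and -3.06 without LR-16312. Pbx2 gave 0.31 (SE 2.01, adjusted p = 0.989). Its sums were 5.85 ± 12.4 and 4.09 ± 7.94 CPM, and without LR-16312 its log2 fold change was -2.96. Meis2 did not pass the filter. The median log2 fold change over all genes tested was -0.18.

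**Figure D2:**
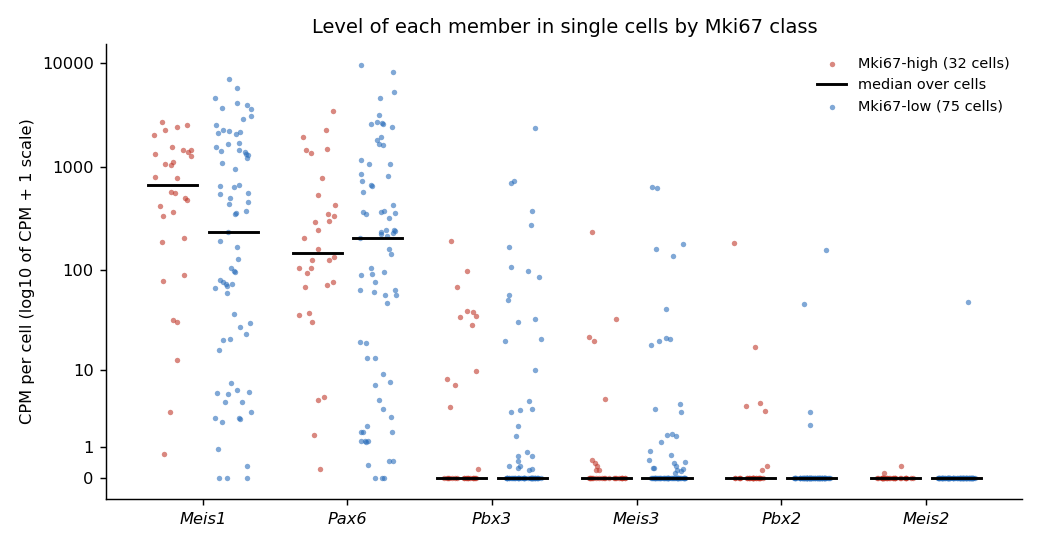
Each point is a cell, with its CPM on a log10(CPM + 1) scale, for the 32 Mki67-high and the 75 Mki67-low cells; black bars are medians over cells. The median of Meis1 was 675 CPM in Mki67-high and 235 CPM in Mki67-low cells, that of Pax6 148 and 204 CPM, and the medians of the other 4 genes were 0 in both classes.

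Sums are set by the cells with the highest levels, and the typical cell differed from them for Meis1. Its median was 675 CPM in Mki67-high and 235 CPM in Mki67-low cells, although the highest levels, up to 7019 CPM, were in Mki67-low cells and the highest Mki67-high cell had 2709 CPM. At 10 CPM or more Meis1 was found in 30 of 32 Mki67-high cells and 58 of 75 Mki67-low cells, and at 100 CPM or more in 25 and 42. Of the 19 cells under 10 CPM, 17 were Mki67-low. In the mean of log2(CPM + 1) over cells, which weights each cell equally, Meis1 was higher in Mki67-high cells in 6 of 6 library groups. The difference was 1.41 (SE 0.56), from 0.46 in LR-16313 to 4.09 in LR-16203 (p = 0.03125 by the exact sign-flip test, two-sided and not adjusted over genes, the smallest p possible here). The share of cells at 10 CPM or more was 17.9 percentage points higher (SE 4.93) and also higher in 6 of 6 library groups, with the same exact p of 0.03125, not adjusted over genes, which 5.92% of the 9084 genes tested reached in this direction. Without the 10 cells with Gad1 of at least 100 CPM the share was 16.3 points higher (SE 7.23), in 5 of 6 library groups (exact p = 0.125).

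Of the 9084 genes, 7.88% reached this p with a higher mean in Mki67-high cells and 1.17% with a lower mean. Of the 5 members tested it was 1, Meis1, in the first direction and 0 in the other. Markers of other cell types also moved with the classes. The 8 astroglial markers, all with counts, had a median summed level per cell of 330 CPM in Mki67-high and 49.0 CPM in Mki67-low cells, with library group means of 264 to 3139 and 342 to 4048 CPM. The 7 markers of the oligodendrocyte lineage, all with counts, had medians of 58.9 and 4.69 CPM, with library group means of 54.2 to 2380 and 229 to 1276 CPM. The part of these markers in the Meis1 difference was not tested. Thinning every cell to 1000000 counts left the Meis1 difference at 1.38 (SE 0.56) in 6 of 6 library groups. Without the 10 cells with Gad1 of at least 100 CPM it was 1.30 (SE 0.71), higher in 5 of 6 library groups (exact p = 0.0938), and without the cells of unusual depth 1.42 (SE 0.66) in 6 of 6. The highest and the lowest Meis1 levels both lay in Mki67-low cells, and the direction of the difference turned with the weight given to cells: the sums gave -0.15 and the log means 1.41.

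**Figure D3:**
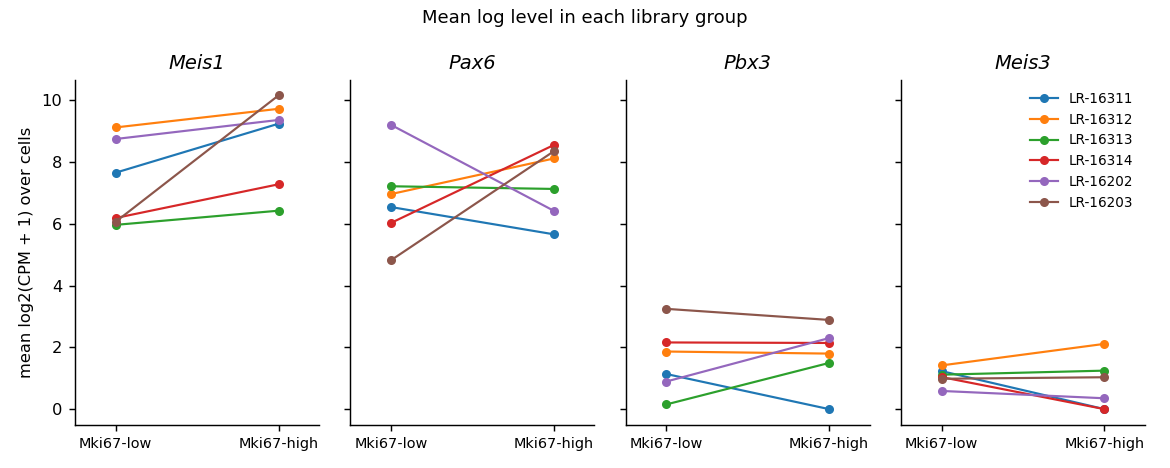
Lines join the mean log2(CPM + 1) over Mki67-low and over Mki67-high cells of the same library group for Meis1, Pax6, Pbx3 and Meis3. The 6 lines of Meis1 rise towards Mki67-high cells by 0.46 to 4.09, while those of Pax6 cross and run from -2.78 to 3.53.

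Pax6 also turned direction between sums and log means, but its library groups did not agree as those of Meis1 did. Its log means were higher in Mki67-high cells in 3 of 6 library groups, with a difference of 0.58 (SE 0.94, exact sign-flip p = 0.594). At 10 CPM or more it was found in 28 of 32 Mki67-high cells and 55 of 75 Mki67-low cells, and at 1000 CPM or more in 6 and 17. The share at 10 CPM or more was 13.1 percentage points higher in Mki67-high cells (SE 9.65), in 4 of 6 library groups (exact sign-flip p = 0.219). In LR-16202 the mean log level was 6.43 in Mki67-high and 9.21 in Mki67-low cells, and in LR-16203 it was 8.35 and 4.83. The direction of the Pax6 difference thus changed between library groups. Pbx3 gave a difference of 0.20 (SE 0.41, exact p = 0.75), Meis3 -0.27 (SE 0.30, exact p = 0.375) and Pbx2 0.37 (SE 0.32, exact p = 0.375), each over the same 6 library groups.

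Among the rarer genes, single cells decided the sums. Meis3 reached 100 CPM in 5 Mki67-low cells and 1 Mki67-high cell, and Pbx3 in 7 Mki67-low cells and 1 Mki67-high cell. Pbx2 had a count in 7 of 32 Mki67-high and 4 of 75 Mki67-low cells, a difference over library groups of 15.2 percentage points (exact sign-flip p = 0.125), and 3.30 points at 10 CPM or more (exact p = 0.625). The 3 cells with Meis2 were unlike each other. In 2 Mki67-high cells it had 1 count each. The other, an LR-16311 cell of the Mki67-low class, had 158 counts or 48.7 CPM of Meis2, and held Meis1 at 2.46 CPM, Zic1 at 0.924 CPM and neither Pax6 nor Rbfox3.

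Within cells, Meis1 and Pax6 were found together in 103 of 109 cells by count, 3 had Meis1 alone and 3 had Pax6 alone. At 10 CPM or more 73 cells had both, 17 had Meis1 alone, 12 had Pax6 alone and 7 had neither. The number with both that the shares in each library group give is 70.6, so the ratio of observed to expected was 1.03. At 100 CPM or more, 45 cells had both against 40.5 expected, a ratio of 1.11 that was above 1 in 5 library groups, with 24 cells holding Meis1 alone, 18 Pax6 alone and 22 neither. At 10 CPM or more most cells thus held both genes, and shares this high leave the ratio little room above 1. The odds ratio over all cells, which has no such bound, was 2.50 at 10 CPM and 2.29 at 100 CPM. By count it was 0, as 0 cells lacked both genes. Whether the genes depend on each other was not tested. Across the 109 cells the correlation of their log2(CPM + 1), after subtracting library group means, was 0.16, a description over cells that share libraries and differ in depth.

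**Figure D4:**
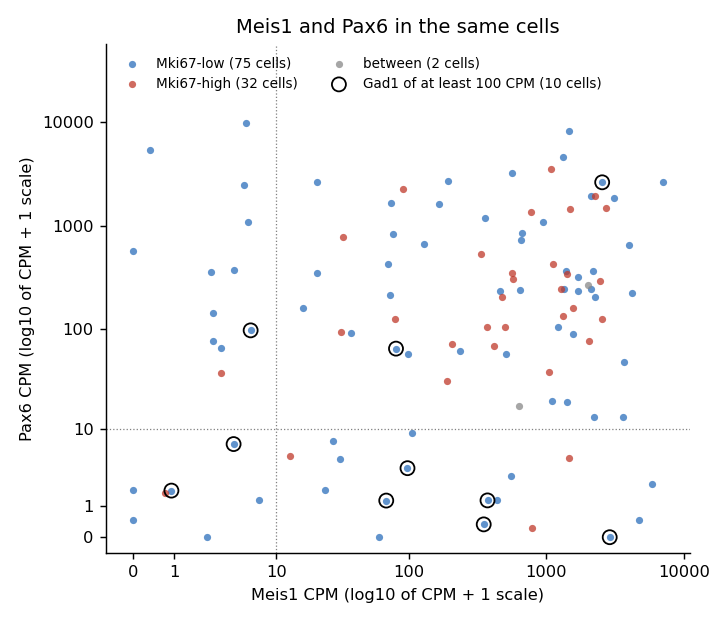
Each point is a cell, with Meis1 on the horizontal and Pax6 on the vertical axis, both in CPM on a log10(CPM + 1) scale; dotted lines mark 10 CPM and circles the 10 cells with Gad1 of at least 100 CPM. Most cells, 73 of 109, lie in the upper right part with both genes, and 7 of the 10 circled cells lie below 10 CPM of Pax6.

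Pairs of a rarer gene with Meis1 or Pax6 had by count 0.705 to 1.03 times their expected numbers. Meis1 and Pax6 were counted in nearly every cell, so these ratios could not rise far above 1. Pbx3 and Meis1 were found together in 42 cells by count (42.4 expected), Pbx3 and Pax6 in 41 (42.5 expected), Meis3 and Meis1 in 36 (37.7 expected) and Meis3 and Pax6 in 38 (37.8 expected). Meis3 and Pbx3 shared 15 cells against 16.5 expected. At 100 CPM or more, 0 of the 6 Meis3 cells and 8 Pbx3 cells were the same, with 0.442 expected. Pbx2 and Pbx3 were together in 7 cells against 5.33 expected, a pair of the same family. At 5 counts or more they were again together in 7 cells, against 3.17 expected, a ratio of 2.21 (95% interval 1.08 to 4.36), above 1 in 4 library groups and below it in 0. By count the ratio was 1.31 (interval 0.643 to 2.59), and 1.23 (interval 0.531 to 2.76) without the cells of unusual depth. The 2 cells with over 10000 detected genes held both Pbx2 and Pbx3. Meis2 and Pbx2 shared 2 cells against 0.444 expected, a ratio of 4.50 (interval 1.24 to 15.8), and 0 cells at 5 counts or more. At 10 CPM or more Pbx2 and Pbx3 were together in 2 cells, with 1.28 expected. These intervals take cells as independent, although cells share library groups, and the pairs were not tested. By count, 38 cells held 2 of the 6 genes, 54 held 3, 13 held 4, 3 held 5 and 1 held all 6. At 10 CPM or more 56 cells held 2 of them, 24 held 3, 4 held 4, 20 held 1 and 5 held 0.

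Pax6 was under 10 CPM in 24 cells, 20 of them Mki67-low, and 7 of the 24 had Gad1 of at least 100 CPM. In the 10 Gad1 cells Pax6 had a median of 2.72 CPM, and it was at 10 CPM or more in 3 of them, at 64.5, 97.2 and 2617 CPM. In the 65 Mki67-low cells with less Gad1 the median was 236 CPM, and 52 were at 10 CPM or more. The correlation of Pax6 with Gad1 across cells was -0.34, at rank 8637 of 8641 genes. Its correlations with Zic1 (0.35, rank 9), Rbfox3 (0.29, rank 41) and Neurod1 (0.23, rank 123), genes of the granule lineage, were on the other side. With Dcx, another marker of that lineage, the correlation of Pax6 was 0.05 (rank 2893). Meis1 had a median of 88.7 CPM in the Gad1 cells and 356 CPM in the other Mki67-low cells. Pbx3 was highest in a Gad1 cell of LR-16203, at 2391 CPM, which also had Meis1 at 2878 CPM, Gad1 at 5452 CPM and no Pax6 count. Another 2 Gad1 cells, both of LR-16314, had Pbx3 at 98.0 and 86.3 CPM. Pax2, a paired-box gene known from cerebellar inhibitory interneurons and their precursors, had a count in each of the 10 Gad1 cells, from 4.21 to 1489 CPM. The other markers of GABAergic interneurons, Gad2 and Slc32a1, each reached 10 CPM in only 2 of these cells. The granule lineage markers Neurod1 and Zic1 each reached 100 CPM in 9 of them.

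Of the 19 cells with Meis1 under 10 CPM, 12 had Pax6 at 10 CPM or more and 8 at 100 CPM or more. The highest Pax6 level of all cells, 9685 CPM in LR-16312, stood beside 5.62 CPM of Meis1, and the 5316 CPM of an LR-16202 cell beside 0.321 CPM. Conversely, an LR-16312 cell with 5790 CPM of Meis1 had 2.22 CPM of Pax6, and an LR-16311 cell with 4657 CPM had 0.451 CPM. Both genes thus reached their upper range in cells nearly without the other. Of these 19 cells, 3 had Gad1 of at least 100 CPM and 1 had the astroglial genes.

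In bulk sums fewer cells of a type and less RNA per cell cannot be told apart, and the counts of cells above bear on this only at the depth reached. The 2 cells with over 10000 detected genes held Meis1 at 562 and 336 CPM, Pax6 at 351 and 532 CPM, Pbx3 at 39.1 and 68.2 CPM, Meis3 at 33.0 and 21.8 CPM and Pbx2 at 3.48 and 3.92 CPM. They were among the few cells with 5 or 6 of the genes, and they had 7 of the 8 astroglial markers at 50 CPM or more.

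Rbfox3 was used to ask whether the genes differ among Mki67-low cells by a neuronal marker. It had a count in 69 of the 75 cells, and the 6 cells without it came from 3 library groups, so that the exact test over library groups cannot go below 0.25. Of the granule lineage markers, Zic1 reached 10 CPM in 3 of these 6 cells and Neurod1 in 5. The LR-16314 cell had Zic1 at 0.677 CPM, Neurod1 at 1.35 CPM and Dcx at 6.32 CPM. Some of the 6 may therefore lie outside the granule lineage, and the part of cell type in the differences below was not tested. Pax6 in these 6 cells was at 47.4 and 0 CPM in LR-16311, 0.452 CPM in LR-16314 and 0, 64.8 and 1.82 CPM in LR-16203. In the 69 cells with Rbfox3 the median was 232 CPM. The classes overlapped in single cells but not in sums, which were 251 to 1823 CPM with Rbfox3 and 0.452 to 26.1 CPM without. The log2 fold change was 5.48 (SE 1.45), higher in 3 of 3 library groups (exact sign-flip p = 0.25) and not called by edgeR (adjusted p = 0.210), where 0.0% of 9566 genes were called, 1947 genes, Pax6 among them, had an unadjusted p under 0.05 and the median of all genes was 1.11. DESeq2 gave 4.96 for Pax6 with an adjusted p of 0.000573, among the 1436 of 8416 tested genes that it called. Between Mki67-low cells from 50 CPM and under 10 CPM of Rbfox3, classes chosen after the data were seen, the Pax6 value was 0.38 (adjusted p = 0.999).

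The other members in this comparison gave log2 fold changes of 0.28 for Meis1 (SE 1.53, edgeR adjusted p = 0.952), 2.78 for Pbx3 (SE 2.39, adjusted p = 0.573), 2.16 for Meis3 (SE 2.16, adjusted p = 0.648) and -0.84 for Pbx2 (SE 2.79, adjusted p = 0.911). Meis1 in the 6 cells was at 3681 and 2.46 CPM in LR-16311, 0 in LR-16314 and 60.3, 3.33 and 0 CPM in LR-16203. A single cell thus made its sum, and without that library group the Meis1 value was 6.46. Pbx3 had a count in 6 of these 6 cells, from 0.226 to 31.3 CPM, and in 25 of the 69 cells with Rbfox3. Meis3 had a count in 4 of the 6 cells and in 25 of the 69, and its log mean difference was -0.77 (SE 0.39, higher with Rbfox3 in 1 of 3 library groups, exact sign-flip p = 0.5), against the positive value of its sums. The log mean difference of Pbx3 was 0.04 (SE 0.98, exact p = 1.0) and that of Meis1 4.004 (SE 1.65, higher in 3 of 3, exact p = 0.25). Dcx, which encodes the microtubule protein doublecortin of young neurons, was under 100 CPM in 4 of the 6 cells, and 5983 CPM in another.

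Notch2 was the other split, among the 32 Mki67-high cells, with a gene of the Notch pathway that the study addresses. Notch2 had a count in 20 of these cells and none in 12. Meis1 and Pax6 had a count in every cell of both classes. Pax6 sums were 644 ± 415 CPM with Notch2 (SD, n = 6 library groups) and 268 ± 179 CPM without (SD, n = 5), a log2 fold change of 1.03 (SE 1.29, edgeR adjusted p = 0.850). The log means were higher with Notch2 in 4 of the 5 library groups with both classes, by 1.87 (SE 0.69, exact sign-flip p = 0.125, where 0.0625 is the smallest). Mki67 was also higher with Notch2, at a median of 1160 CPM against 358 CPM without, and by log mean in 5 of 5 library groups (difference 1.18, SE 0.26, exact p = 0.0625). Its part in the Pax6 difference was not tested. For Meis1 the log2 fold change was -0.09 (SE 1.004, adjusted p = 0.984), and -1.05 with DESeq2 (adjusted p = 0.675), while its log mean difference was 0.71 (SE 1.04, higher in 2 of 5, exact p = 0.75). The Pbx3 value was -1.25 (SE 1.95, edgeR adjusted p = 0.893). Of the 3 members tested 0 were called, as were 0.0% of 6912 genes. The unadjusted p was under 0.05 for 775 of the 6912 genes and 0 of the 3 members, and DESeq2 called 452 of the 7252 genes it tested.

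**Figure D5:**
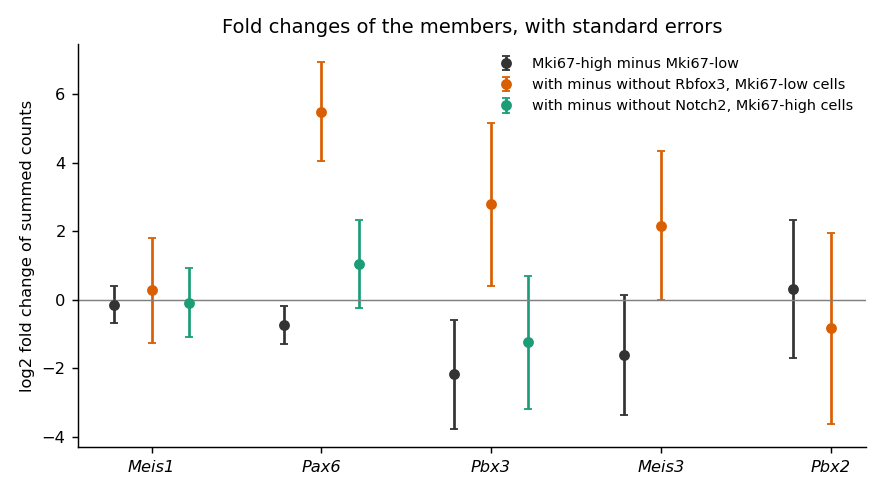
Points are log2 fold changes of summed counts from edgeR for 5 of the genes and bars their standard errors, in the Mki67 comparison (6 sums a class), the Rbfox3 comparison (6 and 3 sums) and the Notch2 comparison (6 and 5 sums). Meis3 and Pbx2 were not tested in the Notch2 comparison and have no point there. Most bars cross 0 or end near it, and Pax6 in the Rbfox3 comparison stands apart at 5.48 with an adjusted p of 0.210.

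The nearest relatives showed which other TALE and paired-box genes the cells carried. Of 18 relatives 12 were listed in the table. Pknox1, a TALE factor that also pairs with Pbx proteins, had a count in 56 cells, Tgif1, a TALE repressor, in 41, and Pbx4 in 23. Among paired-box genes, Pax8 had a count in 36 cells but reached 10 CPM in 0, Pax2 in 23 and Pax3 in 20. Of the 7 relatives tested between Mki67 classes 0 were called by edgeR, with a median log2 fold change of 0.73. Pknox1 gave 1.65 (SE 1.48), Tgif1 2.62 (SE 2.17), Pbx4 -2.21 (SE 2.22) and Pax3 0.73 (SE 2.15). Pax2 had the lowest edgeR adjusted p of the list, 0.422, with a log2 fold change of -7.11 (SE 2.05) and a lower log mean in Mki67-high cells in 6 of 6 library groups. DESeq2 called it, at -6.90 with an adjusted p of 1.49e-05. Each of the 10 Gad1 cells, all Mki67-low, had a Pax2 count, and the part of these cells in the difference was not tested.

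The granule lineage transcription factors gave the setting in which the 6 genes were expressed. All 23 of the list passed the filter, 0 were called, and the median log2 fold change was 0.09, with 13 above and 10 below 0. Neurod1, Nfia, Nfib and Nfix, factors of granule cell differentiation, had a count in each of the 109 cells, and Zic1, Zic4, Zic5 and Nhlh2 in 98 to 108. Their fold changes ran from -1.03 for Nhlh2 (SE 0.70) to 0.88 for Zic4 (SE 0.64). Zic2, Barhl1, Barhl2, Neurod2, Neurod6 and Nhlh1, found in 43 to 88 cells, ran from -0.80 to 0.79, and En1 and En2, in 45 and 26 cells, gave -2.56 and -1.11. Insm1, a zinc finger factor of dividing neural precursors, Gli2, a transducer of Sonic hedgehog signalling, and Zic5 were higher by log mean in 6 of 6 library groups, as Meis1 was and as 7.88% of all genes tested were. These are 3 of the 23. Their log mean differences were 2.71, 1.86 and 1.35. Mycn, a target of the same pathway in granule precursors, was higher in 5 of 6, by 2.13.

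Genes whose levels followed each member most closely over cells were taken from the 8641 genes with a count in at least 20 of 109 cells, by Pearson correlation of log2(CPM + 1) after subtracting library group means. Those of Meis1 were Atrx (0.43), a chromatin remodeller, Phf21b (0.35) and Sema6a (0.33), a transmembrane semaphorin. Those of Pax6 were Grik2 (0.49), a kainate receptor subunit, Ndst3 (0.46), an enzyme of heparan sulfate modification, and Gap43 (0.39), a growth cone protein. Those of Meis3 were Ei24 (0.51), Itpr1 (0.47), a calcium release channel, and Blcap (0.45), and those of Pbx3 were AC130214.1 (0.45), Lrp11 (0.44) and Wdr47 (0.43). No member was among the genes most like another member. Meis1 stood at rank 613 for Pax6 and Pbx3 at rank 598 for Meis1. The cells share libraries and depth with each other, and the correlations describe these 109 cells.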

How the data were processed

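Raw counts per gene, deposited by the authors, were used without change; alignment was to mm10 (STAR 2.4.1d) and counting by HTSeq 0.6.1. The annotation and strand setting are not given in the sources used here. Every listed gene was counted in 3 cells or more, which leaves rarer genes out. No column was left out. The study names 6 batches but does not tie them to the library groups of the labels. The 6 members and all gene lists were chosen with earlier results of these data known.

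CPM was computed over all counts of a cell. Counts were summed per class and library group, filtered (filterByExpr), scaled by TMM and tested with edgeR 4.0.16 (quasi-likelihood, Benjamini-Hochberg over all genes) without a block, and genes were called at an adjusted p under 0.01. edgeR was first tested on simulated data. Exact two-sided sign-flip tests used the differences in mean log2(CPM + 1) over library groups. Expected numbers of cells with both genes were summed over library groups from the shares in each. The alternatives were DESeq2 1.42.0, library group as a replicate block, other thresholds, thinning to 1000000 counts and leaving out cells or library groups. The 6 members were always named, genes of the relative and lineage lists where at least 20 cells had a count, and the 3 most correlated genes of each member with 20 such cells. Cells marked by Gad1 or astroglial genes were chosen after the values were seen. No doublet caller was run. Median totals per library group were 2442200 to 4290792 counts. Promoter sequences are RefSeq's, of GRCm38.p6, and Pbx3 was not in that table. Some genes of the lists are not reported here.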

Additional observations from a re-analysis of the deposited data

Results flagged for a closer look

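Over the library groups of each class, 28 sets of sums were checked for a library group far from the others, and 8 stood out, each because of 1 cell. Chance alone marks about 1 set in 20. In Mki67-high cells of LR-16312 the Meis3 sum was 39.0 CPM and the Pbx2 sum 31.1 CPM, against at most 9.73 and 2.04 CPM in the others. Both came from the same cell, with 233 CPM of Meis3 and 186 CPM of Pbx2. That cell had no Notch2 count, so it also made the Meis3 sum of 88.3 CPM and the Pbx2 sum of 70.3 CPM among Mki67-high cells without Notch2 of LR-16312. In Mki67-low cells of LR-16313 the Pbx2 sum was 19.98 CPM, from a cell with 157 CPM, and it was again 19.98 CPM among the Mki67-low cells with Rbfox3. In Mki67-low cells of LR-16311 the Meis2 sum was 3.67 CPM, from the cell with 48.7 CPM. In Mki67-high cells with Notch2 of LR-16312 the Meis2 sum was 0.190 CPM, which is 1 count.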

How the results depend on the processing

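Between Mki67 classes the number of genes called by edgeR, 2, became 6 at an adjusted p under 0.05, 376 with DESeq2, 1 with Mki67-high cells from 500 CPM, with thinned counts, without cells of unusual depth or without the astroglial cells, and 0 with Mki67-low cells free of Mki67 counts or with library group as a replicate block. Leaving out each library group gave 0 to 1. No member was called under any of these. The Meis1 log2 fold change, -0.15, turned to 0.20 with DESeq2, 0.0091 from 500 CPM, 0.11 without cells of unusual depth and 0.10 without astroglial cells, and without each library group ran from -0.49 to 0.20. Log means gave Meis1 1.41, and 1.07 with a pseudocount of 10 CPM, 1.30 without Gad1 cells, 1.42 without cells of unusual depth and 1.38 thinned. Those of Pax6 were 0.58, 0.24, 0.10, 0.51 and 0.63, each against a negative sum value. Those of Pbx3 were 0.20, -0.08, 0.35, -0.03 and 0.21 in the same order, of which 3 turned its negative sum value. Without each library group Pbx2 ran from -2.96 (without LR-16312) to 2.96 (without LR-16313), Meis3 from -3.06 (without LR-16312) to -1.13, Pbx3 from -2.51 to -1.74 and Pax6 from -1.03 to -0.23 (without LR-16202). From 500 CPM Pax6 was -0.08 and Pbx3 -4.53. With the replicate block Pax6 was -0.54, Meis3 -3.33 and Pbx2 0.15. Each of the 6 library groups held both Mki67 classes. The main edgeR fit did not use this pairing, and the replicate block did. The labels give no number that pairs cells across library groups.

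For Rbfox3, 1 gene was called at 0.05 or when thinned and 1436 with DESeq2, and 0 without each library group. Meis1 became -0.34 with DESeq2 and -0.50 between 50 and 10 CPM of Rbfox3, and ran from -0.12 to 6.46 (without LR-16311) when each library group was left out, where Pbx2 ran from -1.14 to 10.04 (without LR-16203). With the replicate block Meis1 was 4.65 and Pbx2 -6.44, and without LR-16203 Meis3 was 3.73. Pbx3 became -1.17 between 50 and 10 CPM, and Pax6 4.96 with DESeq2. For Notch2, DESeq2 called 452 genes, and Meis1 turned to 0.25 with the replicate block and 0.064 without cells of unusual depth, DESeq2 gave it -1.05, and it ran from -0.49 to 0.20 without each library group, Pbx3 from -2.21 (without LR-16203) to -0.43 (without LR-16202) and Pax6 from 0.38 (without LR-16312) to 1.41. The causes were not tested.

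The share of cells fell at 10 CPM to 82.6% for Meis1, 78.0% for Pax6, 22.02% for Pbx3, 12.8% for Meis3, 5.50% for Pbx2 and 0.917% for Meis2, and at 5 counts to 90.8% for Pax6, 31.2% for Pbx3, 20.2% for Meis3 and 0.917% for Meis2, with 23.1% for Meis3 when thinned. The Meis1 share difference at 10 CPM was 17.9 points, at the smallest possible exact sign-flip p of 0.03125, not adjusted over genes. That p was reached in the same direction by 5.92% of the 9084 genes tested. By 1 count the Meis1 difference was 3.50 points (exact sign-flip p = 0.5). Without Gad1 cells it was 16.3 points at 10 CPM (5 of 6 library groups, exact p = 0.125). The Meis2 share difference turned to -1.11 points at 5 counts and at 10 CPM. The ratio for Meis1 with Pax6 was 1.03 at 10 CPM and 1.11 at 100 CPM. The leaving out of Gad1 or astroglial cells, the log means of thinned cells, the Rbfox3 bounds and the bounds for cells with both genes were chosen after seeing the data.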

Other observations

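A list of 14 genes around Meis and Pbx proteins (Pbxip1, parts of the Cul4 ubiquitin ligase, histone deacetylases and the BMP pathway) gave no call between Mki67 classes, with 13 tested and a median log2 fold change of 0.21. Ddb1, of the Cul4 ubiquitin ligase, had a count in 92 cells, and Crbn, a substrate receptor of the same ligase, in 48. Both were higher by log mean in Mki67-high cells in 6 of 6 library groups, by 1.61 and 0.98, as was the histone deacetylase Hdac1 by 1.33. These are 3 of the 13 tested, where 7.88% of all genes tested were higher in 6 of 6 library groups. In the sums their log2 fold changes were -0.34 (SE 0.94), 1.54 (SE 1.18) and 0.76 (SE 1.47), with edgeR adjusted p-values of 0.957, 0.804 and 0.931. Smad1, Smad4 and Smad5, which carry BMP signals, had a count in 62, 71 and 79 cells and log2 fold changes of -1.17, 0.61 and -1.60.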
